A study of Homo sapiens with 10 samples.

Results

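IGROV-1 is an established human ovarian cancer cell line, and 4 of the 10 libraries of the series were made from it. They are labelled Rep 1 and Rep 2 on the PromethION and Rep 1 and Rep 2 on the MinION, a pair of nanopore sequencers that read whole transcript molecules and differ in scale. The 2 libraries labelled Rep 1 were set against the 2 labelled Rep 2, with the instrument as a block. Of 10041 tested genes, 1084 were called with the same direction on both instruments, a likeness that the test favours. None of the 4 libraries carries a stated treatment, genotype change or time point. The labels give no passage, clone, density or harvest for either number, and they do not say that libraries of equal number came from the same culture. If they did, each number would be 1 culture sequenced on 2 instruments. Every p-value and standard error (SE) below would then measure the spread between sequencing runs alone.

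The transcriptome of a cultured line is known to vary with density, serum, medium age and the share of dividing cells. Immediate early genes are transcribed within minutes of a growth factor or stress signal, p53 targets report DNA damage and other stress, and genes of S and M phase are transcribed in dividing cells. Keratins are among the usual readouts of epithelial state in such lines. Bulk libraries cannot tell fewer cells of a type from less RNA per cell.

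The PromethION libraries held 2341102 (Rep 1) and 2328087 (Rep 2) counts, and the MinION libraries 3666224 and 3236559. Each library had between 13810 and 14096 genes with at least 1 count. Levels are counts scaled to the library total (CPM), with no division by transcript length. They are used here mainly to compare a gene across libraries. The epithelial markers fixed for the check of identity summed to 776 and 1472 CPM in PromethION Rep 1 and Rep 2 and to 753 and 1598 CPM on the MinION, with 6 of 11 high enough to test and 2 at 0 in all 4 libraries. Without KRT18 the same markers summed to 513 and 431 CPM on the PromethION and 509 and 519 CPM on the MinION, so the higher sums of Rep 2 came from KRT18. Of 9 leukocyte markers, 6 were at 0 in all 4 libraries. Another 1 had no entry apart from overlapping genes and was left out, and the summed level without it was at most 0.55 CPM.

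Rep 2 held more KRT18, PLAU, GJA1 and ISYNA1 and less SPP1, SLC7A8, PTTG1 and CKS2 than Rep 1 on both instruments. Of 10041 genes tested with edgeR's quasi-likelihood test, 1089 (10.8%) passed at a Benjamini-Hochberg adjusted p under 0.05. Of these, 492 were higher in Rep 2 (4.9% of those tested) and 597 lower (5.95%), and 1084 had the same direction on both instruments, leaving 5 in opposite directions. The size of most was small: the median absolute log2 difference of the called genes was 0.44, and 194 of them were at least 1.5-fold apart on both instruments. Protein-coding genes made up 94.2% of the called genes, near their 92.5% share of those tested. The share called rose with level, from 3.13% of 3512 genes at a mean of 5 to 20 CPM to 11.9% of 4311 genes at 20 to 100 CPM and 29.2% of 1553 genes at 100 CPM or more, of which 10.1% were higher and 19.1% lower.

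The count rests on the block and on the tool. The spread left over was small, with a coefficient of variation beyond counting of 3.66%, against 11.7% when the Rep number was left out of the model. It was estimated with 1 residual degree of freedom and shared by all genes. Without the instrument block, 5 genes were called, 3 of them higher in Rep 2. DESeq2 with the block gave an adjusted p to 2060 genes, among them 558 of the 1089, and called 174, all of which edgeR also called with the same sign. With 3 libraries the block could not be fitted, and the numbers no longer held the same instruments. The difference between instruments then enters the comparison and its spread, here and wherever a library is left out below. Calls made or lost there cannot be read as a check of a gene. Without the block, 133 genes were called when PromethION Rep 1 was left out, 60 without PromethION Rep 2, 63 without MinION Rep 1 and 58 without MinION Rep 2. An exact permutation of the numbers within instruments cannot give a p under 0.5 here.

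**Figure D1:**
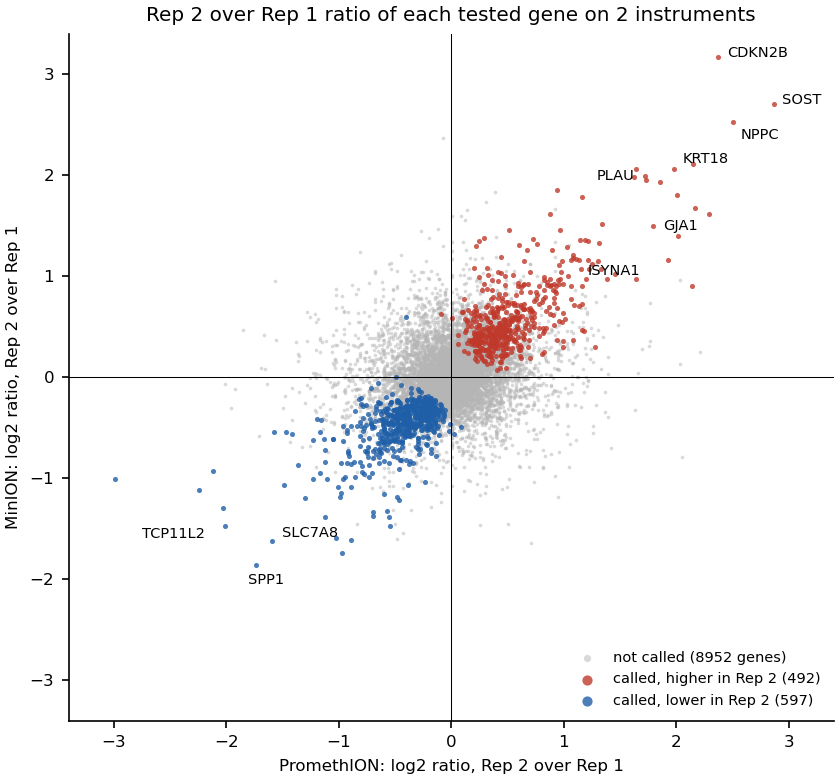
Each point is a tested gene, with the log2 ratio of Rep 2 over Rep 1 on the PromethION (x axis) and on the MinION (y axis), scaled by TMM. The 492 genes called higher (red) and 597 called lower (blue) lie along the diagonal, which the test favours. KRT18 and SPP1 lie far from the 8952 genes not called (grey).

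The 2 instruments' ratios share no library, so their likeness across genes could be described. Over the 9376 genes whose mean level reached 5 CPM, Pearson's r was 0.40 and Spearman's rho 0.37, and 63.3% had the same sign. At a mean of 20 CPM or more r was 0.59 (5864 genes), at 50 CPM it was 0.73 (3020 genes), and at 100 CPM it was 0.81 (1553 genes, 75.1% with the same sign). All genes of an instrument take their ratio from the same pair of libraries and are not independent replicates, so no p is given.

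A 2-fold difference on both instruments was rare. Among the 9376 genes, 29 (0.309%) were at least 2-fold higher in Rep 2 on both instruments, 11 (0.117%) were at least 2-fold lower on both, and 0 were at least 2-fold apart in opposite directions. All 40 were also called. Of the 29 higher genes 14 had a mean under 20 CPM, as had 8 of the 11 lower ones.

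The genes named first were chosen by the smaller of their 2 log2 ratios, the 10 largest in each direction among called genes. Among the 10 that were higher, KRT18 had by far the most counts. KRT18 (ENSG00000111057, chr12:52948871-52952901) encodes a type I keratin of simple epithelia. Its level was 263 CPM in PromethION Rep 1 and 1041 CPM in PromethION Rep 2, and 244 and 1079.5 CPM in MinION Rep 1 and Rep 2. Both Rep 2 libraries lay above both Rep 1 libraries, with a log2 difference of 2.03 ± 0.07 (SE of the fit, n = 2 libraries per number), or 4.08-fold (edgeR adjusted p = 6e-171). Each SE was derived from the F value of the test. It rests on the spread shared by all genes and not on the 2 libraries of a number alone. Of all 10041 tested genes 3533 (35.2%) had no overlap between the 2 numbers, so that a lack of overlap here and in the genes that follow only describes their values. In the 6 other ovarian lines of the series KRT18 lay between 309 and 4627 CPM, so the Rep 1 libraries were below all of them. The call held in every alternative, with an adjusted p of at most 0.0034.

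PLAU (chr10:73911104-73917497) encodes urokinase, a secreted plasminogen activator. It was at 21.8 and 74.3 CPM in PromethION Rep 1 and Rep 2 and at 18.8 and 79.4 CPM in MinION Rep 1 and Rep 2. The groups did not overlap, and the log2 difference was 1.90 ± 0.14 (edgeR adjusted p = 1e-37). EDN2 (chr1:41478775-41484671), which encodes the vasoactive peptide endothelin 2, stood at 7.69 and 29.6 CPM on the PromethION and at 7.36 and 31.8 CPM on the MinION, again with no overlap (log2 difference 1.99 ± 0.22). COL1A1 (chr17:50183289-50201632), a chain of fibrillar type I collagen, had 6.41, 22.8, 4.91 and 22.9 CPM in PromethION Rep 1, PromethION Rep 2, MinION Rep 1 and MinION Rep 2. Both Rep 2 libraries were again above both Rep 1 libraries (log2 difference 1.99 ± 0.26).

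The other genes of this group were at low levels. GDF7, a ligand of the BMP family, was at 4.27 and 19.3 CPM on the PromethION and 5.46 and 21.9 CPM on the MinION. NPPC, which encodes C-type natriuretic peptide, was at 1.71 and 12.9 CPM on the PromethION and 2.18 and 16.7 CPM on the MinION. THBS1, the matricellular protein thrombospondin 1, was at 2.56 and 13.7 CPM on the PromethION and 1.91 and 11.1 CPM on the MinION. Each of the 3 had both Rep 2 libraries above both Rep 1 libraries. CDKN2B, an inhibitor of the G1 cyclin-dependent kinases, had 2 counts against 17 on the PromethION, a ratio of 8.55 with an exact 95% counting interval of 2.03 to 76.3. On the MinION it had 1 count against 27, a ratio of 30.6 (5.04 to 1252). SOST, which encodes the Wnt and BMP antagonist sclerostin, had 0 counts in PromethION Rep 1, which allows up to 1.28 CPM. It had 10 counts (4.3 CPM) in PromethION Rep 2, which is 3.35-fold that limit. This value leaves out the counting error of the 10 counts and is not an interval. On the MinION SOST had 2 counts in Rep 1 and 25 in Rep 2, a ratio of 14.2 (3.53 to 123). These intervals cover counting error only. The last of the 10, the long noncoding gene AC009812.4, had 0.43 and 4.3 CPM on the PromethION and 1.09 and 5.25 CPM on the MinION, higher in both Rep 2 libraries (edgeR adjusted p = 0.0051).

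SPP1 led the genes that were lower in Rep 2. SPP1 (ENSG00000118785, chr4:87975650-87983426) encodes osteopontin, a secreted phosphoprotein that binds integrins and CD44. Its level was 282 and 84.6 CPM in PromethION Rep 1 and Rep 2 and 301 and 87.4 CPM in MinION Rep 1 and Rep 2. Both Rep 1 libraries were above both Rep 2 libraries, with a log2 difference of -1.81 ± 0.09 (edgeR adjusted p = 4.6e-91), or 3.51-fold. SLC7A8 (chr14:23125295-23183641), which encodes the neutral amino acid exchanger LAT2, was at 146 and 48.1 CPM on the PromethION and 162 and 55.3 CPM on the MinION. The log2 difference was -1.62 ± 0.10 with no overlap (edgeR adjusted p = 6.8e-52). The highest level of SLC7A8 in the other 6 lines was 11.9 CPM.

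The remaining lower genes had at most 21.4 CPM in any library. PRRX2, a homeobox transcription factor of mesenchyme, was at 16.7 and 3.01 CPM on the PromethION and 14.7 and 6.8 CPM on the MinION. ACPP, which encodes prostatic acid phosphatase, was at 21.4 and 4.72 CPM and at 17.5 and 7.11 CPM in the same order. IRX3, a homeobox gene of the Iroquois family, was at 13.7 and 6.01 CPM and at 10.1 and 4.94 CPM. In all 3 both Rep 1 libraries were the higher ones. CLDN16, which encodes a paracellular tight junction protein, had the largest adjusted p of the 10 (0.04, edgeR) at 6.41 and 2.58 CPM on the PromethION and 4.91 and 1.54 CPM on the MinION. KIF9, C14orf105 and TCP11L2 were also among the 10. Of the 20 genes, KRT18, PLAU, SPP1 and SLC7A8 were called in every alternative that gave them an adjusted p. DESeq2 gave an adjusted p to 3 of the 20 and called all 3. Without the block 4 of the 20 were called, and 8 were called whichever library was left out.

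**Figure D2:**
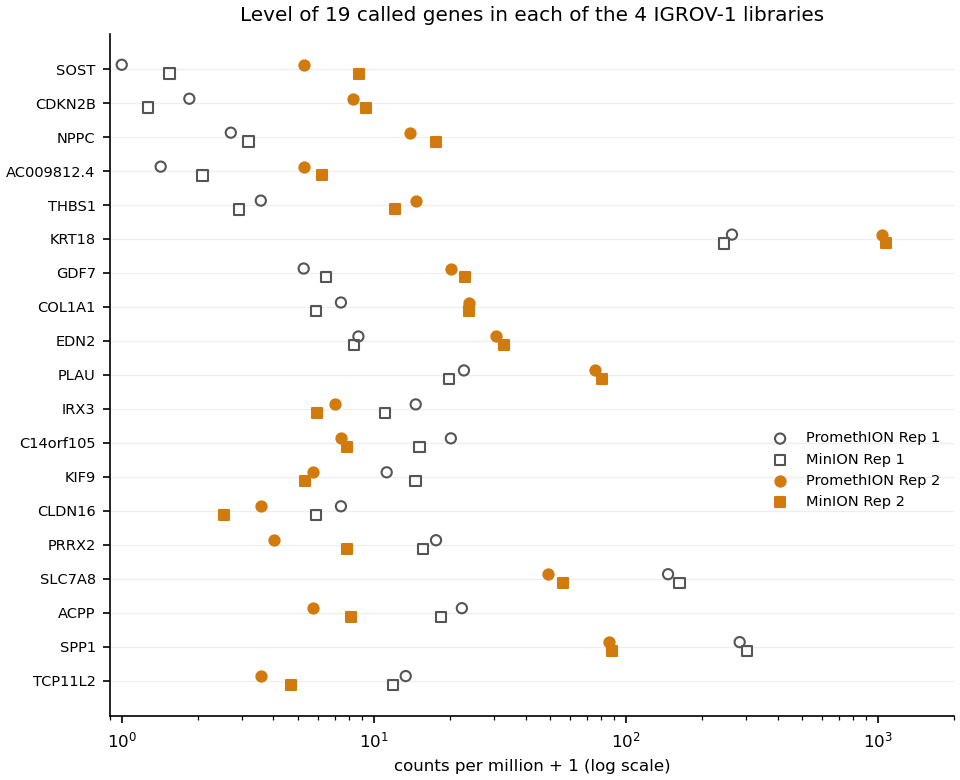
Levels of the genes with the largest smaller ratio that have an identifier of their own, as CPM + 1 on a log axis, with open grey symbols for Rep 1, filled orange symbols for Rep 2, circles for the PromethION and squares for the MinION. For every gene the orange symbols lie on the same side of the grey ones on both instruments, which the choice of genes required. KRT18 spans 244 to 1079.5 CPM.

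The genes with the smallest adjusted p, looked up after their values were seen, add abundant members with smaller folds. GJA1, the gap junction protein connexin 43, was at 38.9 and 137 CPM in PromethION Rep 1 and Rep 2 and at 57.3 and 172 CPM in MinION Rep 1 and Rep 2. Both Rep 2 libraries lay above both Rep 1 libraries (log2 difference 1.61 ± 0.10, edgeR adjusted p = 3.4e-51). ISYNA1, the enzyme that makes inositol phosphate from glucose 6-phosphate, was at 128 and 283 CPM on the PromethION and 146 and 345 CPM on the MinION. MFAP5, a microfibril-associated glycoprotein, was at 50.4 and 127 CPM and at 61.9 and 166 CPM, higher in Rep 2 throughout. FSTL1, a secreted glycoprotein related to follistatin, was at 420.3 and 713 CPM on the PromethION and at 519.6 and 989 CPM on the MinION, with no overlap. In the other direction, PTTG1, which encodes securin, was at 391.7 and 206 CPM on the PromethION and 498 and 292 CPM on the MinION. Its Rep 1 libraries were both above its Rep 2 libraries (log2 difference -0.88 ± 0.07). DPP4, a cell surface peptidase, was at 237 and 130.15 CPM on the PromethION and 247 and 146 CPM on the MinION, lower in both Rep 2 libraries. POU5F1 was not taken from that ranking but picked out after its values were seen. It encodes the pluripotency factor OCT4, and near-identical pseudogenes could share its reads. Its level was 111 and 57.6 CPM and 140.5 and 74.5 CPM in the same order.

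Gene lists were then read by the counts of their tested members. The median log2 difference was 0.01 over all 10041 genes, and each count stands against 4.9% of them called higher and 5.95% called lower, or 10.1% and 19.1% of those at 100 CPM or more. Immediate early genes had the highest median of the 22 lists, 0.45: 7 of 15 tested members rose, 0 fell and 8 did not pass. JUN, a subunit of the AP-1 transcription factor, was at 60.7 and 96.2 CPM on the PromethION and 50.2 and 76.3 CPM on the MinION. Both Rep 2 libraries exceeded both Rep 1 libraries (log2 difference 0.59 ± 0.11, edgeR adjusted p = 9.1e-06). EGR1, a zinc finger factor induced by serum, rose most, from 3.84 to 9.45 CPM on the PromethION and from 2.73 to 11.7 CPM on the MinION (log2 difference 1.70 ± 0.38). IER3 and IER5, a pair of short-lived response genes, rose by 0.78 ± 0.15 and 0.69 ± 0.12 (log2). DUSP6, a phosphatase that switches off ERK kinases, rose by 0.45 ± 0.11, and IER2 by 0.69 ± 0.24. The 3 most abundant members did not pass: CYR61 (0.07 ± 0.08), JUND (0.14 ± 0.08) and MYC (0.19 ± 0.09). All 7 calls had the same direction with an offset for transcript length, and 0 were made by DESeq2, without the block or with any library left out.

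The promoter of EGR1 is shown because it carries CArG boxes, the sites of serum response factor (SRF), in the bases before its start. The sequence is from RefSeq on GRCh38.p14, 250 bases upstream of the start on the gene's own strand, with CArG boxes (searched on both strands) in capitals.
EGR1, chr5:138465229-138465478 (+ strand): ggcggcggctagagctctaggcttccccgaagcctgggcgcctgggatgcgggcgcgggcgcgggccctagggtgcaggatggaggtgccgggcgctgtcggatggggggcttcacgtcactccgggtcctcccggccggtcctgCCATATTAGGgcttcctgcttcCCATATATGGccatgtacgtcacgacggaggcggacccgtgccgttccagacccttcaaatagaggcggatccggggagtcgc
A CArG box was found in 2 places there, and 1.16% of 35116 promoter windows, each also cut to the 250 bases before its start, held at least 1. Of the 7 immediate early genes that rose, 6 had a promoter in the RefSeq table, and EGR1 was the 1 with a CArG box. Of the 8 that did not pass, 6 had a promoter and 1 of those, SRF itself, held the box. A match is a stretch of letters and not evidence of binding.

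Among p53 targets 8 of 20 tested members rose, 0 fell and 12 did not pass, with a median log2 difference of 0.21. GDF15, a stress-induced cytokine, was at 268 and 507 CPM in PromethION Rep 1 and Rep 2 and at 273 and 548 CPM in MinION Rep 1 and Rep 2. Its groups were far apart relative to the gap between instruments (log2 difference 0.92 ± 0.07, edgeR adjusted p = 1e-36). CDKN1A, the cyclin-dependent kinase inhibitor p21, was at 288 and 417.5 CPM and at 272 and 427 CPM, higher in both Rep 2 libraries (log2 difference 0.55 ± 0.07). The other 6 were BAX, a mitochondrial death effector (0.31 ± 0.09), BTG2, an antiproliferative gene that the immediate early list also holds (0.39 ± 0.10), MDM2, the ligase that degrades p53 (0.33 ± 0.11), TNFRSF10B, a receptor for TRAIL (0.38 ± 0.11), TP53INP1 (0.39 ± 0.12) and PLK2 (0.52 ± 0.12). With the length offset 6 of the 8 calls were made, and MDM2 and TP53INP1 did not pass (edgeR adjusted p = 0.52 and 0.076). DESeq2 called 2 of the list, and 0 to 1 was called with a library left out.

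Genes of the cell cycle were lower in Rep 2 where they passed. Of 36 tested genes of G2 and M phase 10 fell, 0 rose and 26 did not pass, with a median of -0.17. The share lower was 27.8%, against 5.95% of all genes, and at 100 CPM or more it was 6 of 11, against 19.1%. CKS2, a small protein that binds cyclin-dependent kinases, fell most, from 399 to 233 CPM on the PromethION and from 334 to 182 CPM on the MinION. Both Rep 1 libraries lay above both Rep 2 libraries (log2 difference -0.87 ± 0.07, edgeR adjusted p = 9e-30). Its paralog CKS1B was at 275 and 178 CPM on the PromethION and 332 and 230.5 CPM on the MinION (-0.62 ± 0.07). BIRC5, the survivin subunit of the chromosomal passenger complex, was at 117 and 85.5 CPM and at 150.3 and 96.1 CPM (-0.62 ± 0.09), and AURKB, the kinase of that complex, changed by -0.58 ± 0.12. Both Rep 2 libraries were the lower ones for each of these 3 genes. The cyclins CCNB1 (-0.34 ± 0.08) and CCNB2 (-0.38 ± 0.10) also fell, as did HMGB2, TUBB4B, SMC4 and HMMR.

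Of 24 tested S phase genes 7 fell, 0 rose and 17 did not pass, and the median was -0.22. PCNA, the sliding clamp of DNA polymerase, was at 494 and 378 CPM on the PromethION and 528 and 423 CPM on the MinION, lower in both Rep 2 libraries (-0.40 ± 0.07, edgeR adjusted p = 3.1e-07). GINS2, MCM5, MCM6, RPA2 and TYMS also fell. TYMS was at 337 and 292 CPM on the PromethION and 486 and 437 CPM on the MinION, so that its Rep 2 MinION library lay above its Rep 1 PromethION library and the groups overlapped. All 10 calls of the G2 and M phase list were made with the length offset. Of the 7 S phase calls 5 were made there, TYMS and RPA2 did not pass (edgeR adjusted p = 0.19 and 0.14), and MCM7 and MCM4 passed as lower (0.021 and 0.029). DESeq2 called 1 gene of the S phase list and 3 of the G2 and M phase list as lower. Few or none of either list were called with a library left out.

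The promoters of the 3 most abundant lowered genes of G2 and M phase that have a single promoter in the RefSeq table are given here. CCAAT boxes and the cell cycle homology region (CHR, searched as TTTGAA) are the elements through which genes of mitosis are switched on late in the cycle. Each window is the 250 bases before the start on GRCh38.p14, 5′ to 3′ on the gene's strand, with CCAAT and TTTGAA on either strand in capitals.
TUBB4B, chr9:137241037-137241286 (+ strand): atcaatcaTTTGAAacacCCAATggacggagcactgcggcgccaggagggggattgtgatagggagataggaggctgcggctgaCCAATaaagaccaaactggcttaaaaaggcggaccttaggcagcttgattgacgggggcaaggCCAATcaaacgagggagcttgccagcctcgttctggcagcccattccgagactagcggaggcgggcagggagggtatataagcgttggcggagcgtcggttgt
CKS2, chr9:89310945-89311194 (+ strand): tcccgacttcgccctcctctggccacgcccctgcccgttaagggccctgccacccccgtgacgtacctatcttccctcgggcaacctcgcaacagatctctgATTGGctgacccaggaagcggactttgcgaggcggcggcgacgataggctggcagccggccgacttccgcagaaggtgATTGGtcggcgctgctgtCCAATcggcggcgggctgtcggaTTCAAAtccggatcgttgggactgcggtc
CKS1B, chr1:154974431-154974680 (+ strand): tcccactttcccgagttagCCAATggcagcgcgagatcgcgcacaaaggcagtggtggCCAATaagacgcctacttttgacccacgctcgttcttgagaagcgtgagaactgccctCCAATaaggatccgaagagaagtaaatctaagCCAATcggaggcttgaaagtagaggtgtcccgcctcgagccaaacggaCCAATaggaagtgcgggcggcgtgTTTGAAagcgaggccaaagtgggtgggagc
CCAAT was found in 3 places in the TUBB4B window, 3 in the CKS2 window and 5 in the CKS1B window, and TTTGAA in 1 place in each. Of 10 lowered genes of the list, 8 had a promoter in the table, of which 7 held CCAAT and 6 held TTTGAA. Of the 26 that did not pass, 22 had a promoter, of which 15 held CCAAT and 12 held TTTGAA. Over all 35116 windows the shares were 32.0% and 13.3%. The elements were therefore present on both sides of the threshold.

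**Figure D3:**
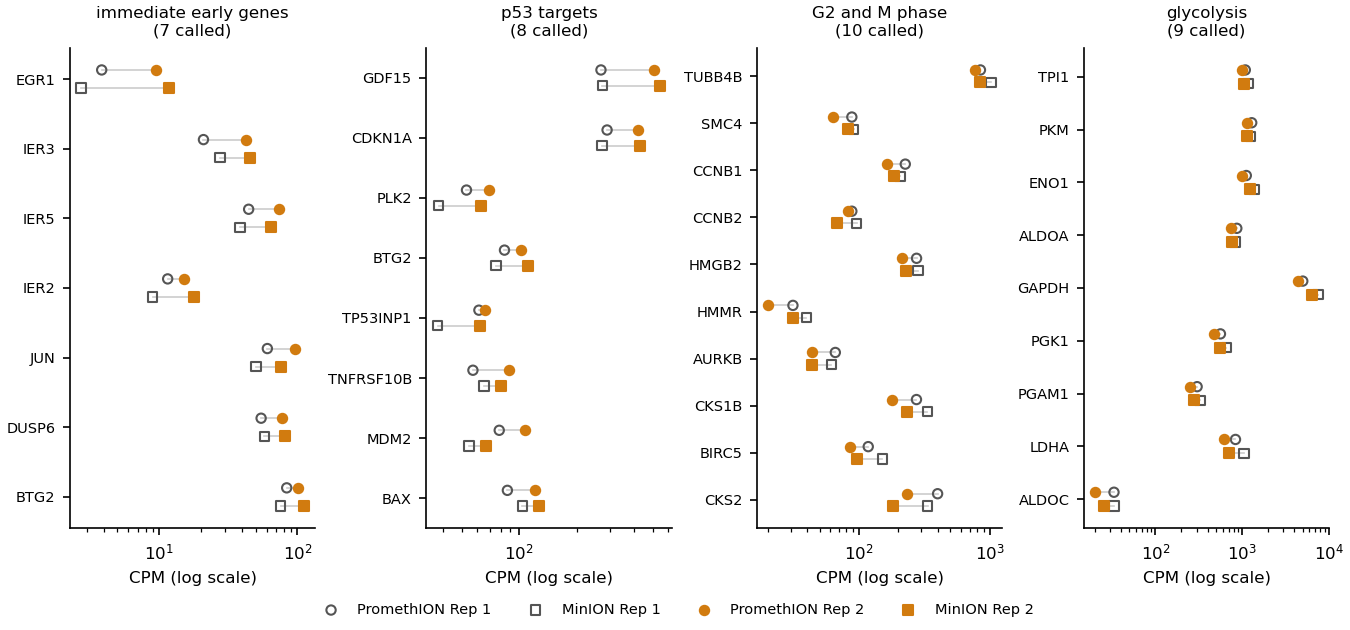
CPM on a log axis of the called members of 4 gene lists, with open grey symbols for Rep 1 and filled orange symbols for Rep 2, circles for the PromethION and squares for the MinION. The orange symbols lie to the right within each instrument for the 7 immediate early genes and 8 p53 targets and to the left for the 10 genes of G2 and M phase and 9 glycolytic genes.

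Genes of glycolysis, the breakdown of glucose to pyruvate and lactate, had a median of -0.21: 9 of 18 fell, 0 rose and 9 did not pass. LDHA, a lactate dehydrogenase subunit, was at 840.2 and 623 CPM on the PromethION and 1050.1 and 708 CPM on the MinION, lower in both Rep 2 libraries (-0.55 ± 0.07, edgeR adjusted p = 1.1e-14). LDHB, another subunit, was more abundant, at 1820 and 1760 CPM on the PromethION and 2189 and 2040 CPM on the MinION. It did not pass (-0.12 ± 0.07, edgeR adjusted p = 0.27). PGK1 was at 563 and 477 CPM and at 658 and 559 CPM (-0.28 ± 0.07), and PGAM1 changed by -0.29 ± 0.07. GAPDH was at 5019 and 4427 CPM on the PromethION and 7512 and 6358 CPM on the MinION, so the instruments differed by more than the numbers did and the groups overlapped (-0.25 ± 0.07, edgeR adjusted p = 0.0084). ENO1, PKM, ALDOA, TPI1 and ALDOC were the other 5. With the length offset 7 fell, with DESeq2 2, and with a library left out at most 1.

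Hypoxia response genes went both ways. Of 13 tested, BNIP3 (a mitophagy receptor, -0.87 ± 0.09), FAM162A (-0.49 ± 0.08) and the collagen prolyl hydroxylase P4HA2 (-0.64 ± 0.16) fell, while the mTORC1 inhibitor DDIT4 (0.35 ± 0.07) and the glucose transporter SLC2A1 (0.40 ± 0.11) rose. BNIP3 was at 166 and 89.3 CPM on the PromethION and 185 and 108 CPM on the MinION, with both Rep 2 libraries lower. Genes of the amino acid response were also mixed, with 2 of 23 higher (DDIT4 and SLC7A5) and 3 lower (PSAT1, PSPH and SLC3A2). SLC7A5, the LAT1 transporter of large neutral amino acids, was at 77.3 and 151 CPM on the PromethION and 75.8 and 157 CPM on the MinION, higher in both Rep 2 libraries (0.96 ± 0.10, edgeR adjusted p = 3e-21). SLC3A2, the heavy chain that pairs with SLC7A5 and SLC7A8 at the membrane, was at 247 and 215 CPM and at 236 and 195 CPM (-0.29 ± 0.08). SLC7A5 thus differed in the direction opposite to SLC7A8.

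The lists of lipid synthesis, chaperones and defence had few called members, some of them near the share over all genes (4.9% higher and 5.95% lower). Of 22 tested genes of sterol synthesis 3 fell and 0 rose, with a median of -0.18. The epoxidase SQLE was at 196.5 and 147 CPM on the PromethION and 208 and 163 CPM on the MinION (-0.43 ± 0.08), and the other 2 were FDFT1 and MSMO1. Fatty acid synthesis had 1 of 11 lower (the desaturase FADS1), endoplasmic reticulum chaperones 1 of 16 lower (PDIA6) and cytosolic heat shock proteins 2 of 13 higher (HSPH1 and BAG3). The interferon list had 1 of 13 higher, IFITM2 (0.35 ± 0.07). The NRF2 list had 2 of 14 lower, PRDX1 and TXN, and neither passed with the length offset, under which FTL passed as higher. Both tested metallothioneins failed to pass. Replication-dependent histones had 2 of 8 lower and a median of 0.05, and neither call was made with the length offset (edgeR adjusted p = 0.30 for HIST1H4C and 0.16 for HIST1H2AC). HIST1H4C was at 264 and 201 CPM on the PromethION but at 8.46 and 13.9 CPM on the MinION, so its ratio went opposite ways, and HIST1H2AC was at 35 and 27.5 CPM and at 39 and 29.7 CPM.

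Transcript length moved with the Rep 2 over Rep 1 ratio on both instruments. Across 9372 genes the Spearman correlation of the ratio with the expression-weighted transcript length was 0.18 on the PromethION and 0.32 on the MinION. In the shortest of 5 equal bins (135 to 1764 nt) the median log2 ratios were -0.076 and -0.141, and in the longest (5392 to 90980 nt) they were 0.085 and 0.157. The shortest bin held 61 called genes higher in Rep 2 and 323 lower, and the longest held 162 higher and 38 lower. With a per-library offset that removes the length trend, 956 genes were called, 475 higher and 481 lower, and 741 of the 1089 were among them, all with the same sign. The share of higher genes was 49.7% with the offset and 45.2% without it.

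**Figure D4:**
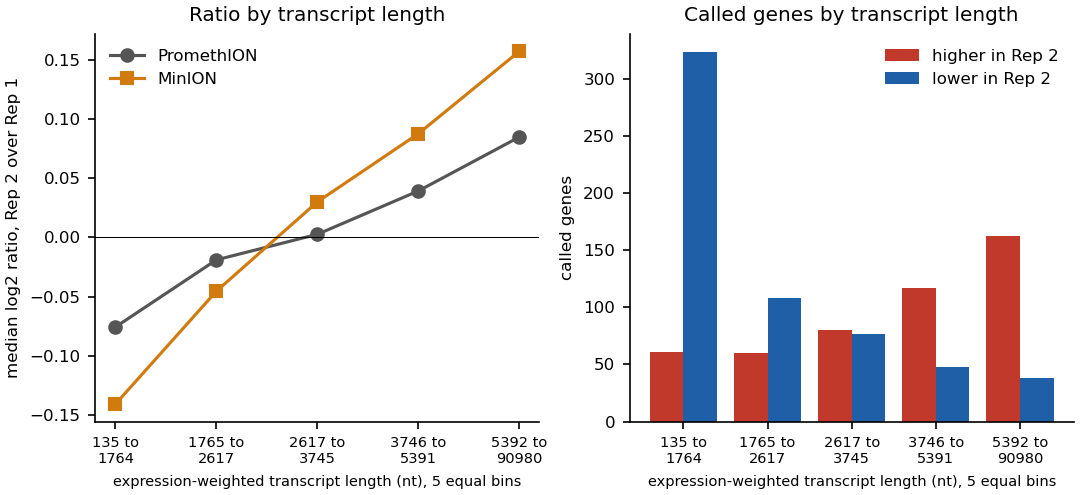
Left, the median log2 ratio of Rep 2 over Rep 1 in 5 equal bins of transcript length for each instrument. Right, the number of genes called higher (red) and lower (blue) in Rep 2 in each bin, with 61 and 323 in the shortest and 162 and 38 in the longest.

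Cytosolic ribosomal protein genes, whose tested members had a median length of 986.5 nt, showed 23 of 64 lower, 2 higher and 39 not passing, with a median of -0.14. All 64 were at 100 CPM or more. Of all genes at that level 19.1% were lower, and of the shortest length bin 17.2%, against 35.9% of this list. The list is both abundant and short, and the share lower among genes with both traits was not taken. How far 35.9% exceeds such genes is therefore not known. RPS27A, which encodes a fusion of ubiquitin and a ribosomal protein, was at 4416 and 3072 CPM on the PromethION and 5491 and 3786 CPM on the MinION (-0.57 ± 0.07). RPS14, a small subunit protein, was at 2905 and 2005 CPM and at 3463 and 2362 CPM (-0.59 ± 0.07, edgeR adjusted p = 2.1e-15), with both Rep 2 libraries lower. RPL38, of the large subunit, went the other way, from 1903 to 2256 CPM on the PromethION and from 2006 to 2971 CPM on the MinION (0.37 ± 0.07), and RPS27 rose by 0.22 ± 0.07. With the length offset 18 were lower and 8 higher, the median was -0.02, and 18 of the 25 calls were among them. DESeq2 called 17 lower and 1 higher, and 0 were called with any library left out. Processed pseudogenes of these genes could share their reads.

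Nuclear genes of oxidative phosphorylation, the respiratory chain and ATP synthase, had a median length of 839 nt. Of 41 tested, 13 fell and 1 (COX6B1) rose, with a median of -0.13. The share lower was 31.7%, and all 41 were at 100 CPM or more, so this list too was both abundant and short. NDUFA4, a subunit of cytochrome c oxidase, was at 1416 and 843 CPM on the PromethION and 1742 and 1097 CPM on the MinION (-0.75 ± 0.07, edgeR adjusted p = 4.2e-27). COX7B, another subunit of that complex, was at 532 and 330.3 CPM and at 771 and 491 CPM (-0.71 ± 0.07). With the length offset 7 of the 14 calls were made, 7 genes were lower, NDUFA4 (-0.70) and COX7B (-0.69) among them, 4 were higher, and the median was -0.01.

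Of 13 messenger RNAs of the mitochondrial genome, 3 were called higher in Rep 2 and 0 lower, with a median of 0.12. With the length offset 9 were higher, the 3 among them, and the median was 0.25. MT-ATP6, a subunit of ATP synthase, was at 4884 and 6416 CPM on the PromethION and 4769 and 7035 CPM on the MinION, higher in both Rep 2 libraries (0.43 ± 0.07, edgeR adjusted p = 2.9e-07). MT-ND3 was at 6613 and 7601 CPM and at 6980.2 and 9532 CPM, and MT-CO1 at 3816 and 3602 CPM and at 3262 and 5342 CPM. MT-CO1 was thus lower in Rep 2 on the PromethION, and its call came from the MinION libraries. Mitochondrial ribosomal RNA took 9.13% of the counts of PromethION Rep 1 and 10.95% of PromethION Rep 2, but 1.15% and 1.01% on the MinION, opposite directions on the instruments. The 95% Wilson intervals, which cover counting error only, were 9.09% to 9.16% and 10.91% to 10.99% on the PromethION and 1.14% to 1.16% and 0.996% to 1.02% on the MinION.

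Genes of the matrix and of contact sensing rose where they passed. Of 19 tested matrix and integrin genes 4 rose (THBS1, COL4A1, COL18A1 and HSPG2), 0 fell, and the median was 0.15. This list had a median length of 6494 nt, and with the length offset THBS1 alone was called. COL4A1, a chain of basement membrane collagen, was at 363 and 439 CPM on the PromethION and 343 and 419 CPM on the MinION (0.24 ± 0.07). Of 9 targets of YAP, the effector of cell contact and tension, ANKRD1 and CRIM1 rose and 0 fell. ANKRD1, an ankyrin repeat cofactor, was at 20.1 and 63.6 CPM on the PromethION and 10.9 and 47.9 CPM on the MinION, with both Rep 2 libraries higher (1.85 ± 0.16, edgeR adjusted p = 4.4e-26). CRIM1 rose by 0.43 ± 0.10, and CYR61, the most abundant of the list, did not pass.

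Of 8 tested epithelial and Müllerian genes KRT18 rose, and PAX8 and CLDN3 fell. PAX8, the transcription factor that marks Müllerian epithelium, was at 211 and 134 CPM on the PromethION but at 165 and 167.5 CPM on the MinION, so its call (-0.32 ± 0.08) came from the PromethION libraries. CLDN3, a tight junction claudin, was at 137 and 103 CPM and at 173 and 149 CPM (-0.35 ± 0.09). KRT19 (0.21 ± 0.08, edgeR adjusted p = 0.099) and the folate receptor FOLR1 (-0.05 ± 0.08) did not pass. With the length offset KRT19 passed as higher (edgeR adjusted p = 0.0017) and CLDN3 did not pass (0.081), so that 2 of the 8 were higher and 1 lower. Of the markers of other cell types, the fibroblast list summed to 7.26 and 23.6 CPM on the PromethION and 4.91 and 24.1 CPM on the MinION, nearly all of it COL1A1, with 3 of its 8 genes at 0 in all 4 libraries. That sum leaves out 1 of the 8, which had no entry apart from overlapping genes. The endothelial list summed to 1.28 and 7.3 CPM and to 2.18 and 7.11 CPM, with CDH5 its 1 tested gene and 3 of 5 at 0. Their part in the rise of matrix genes was not tested.

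**Figure D5:**
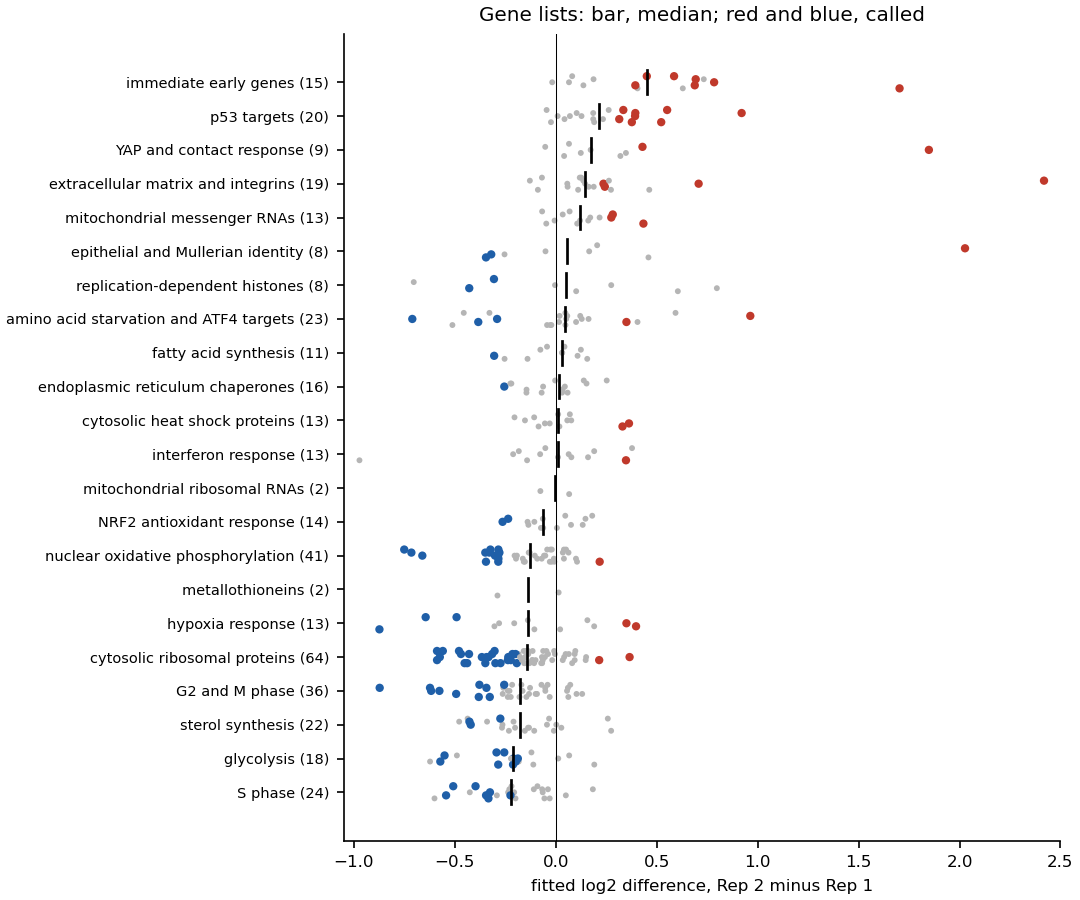
Fitted log2 difference (Rep 2 minus Rep 1) of the tested members of 22 gene lists, with the number tested in brackets, a black bar at the median, red or blue points for members called higher or lower and grey points for the rest. Immediate early genes (median 0.45) stand at the top, and S phase genes (median -0.22) at the bottom.

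At the level of transcripts, 870 of 14023 tested (6.2%) passed, 379 higher in Rep 2 and 491 lower. Of these transcripts 867 had the same direction on both instruments, which the test favours as it does for genes. They belonged to 799 genes, of which 677 were also called as genes. The 5 with the largest smaller ratio were transcripts of SOST (ENST00000301691), NPPC (ENST00000409852), CDKN2B (ENST00000276925), THBS1 (ENST00000260356) and KRT18 (ENST00000388835), all genes named above. The KRT18 transcript alone rose from 249.9 to 1028 CPM on the PromethION and from 229.96 to 1060.5 CPM on the MinION, which is nearly the whole of the gene's change. Without the block 0 transcripts were called by edgeR (657 at an unadjusted p under 0.05), and DESeq2 with the block called 138.

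The share of a gene's counts taken by each transcript did not pass in any gene. Of 2979 genes tested with edgeR's diffSpliceDGE, 0 (0%) had an adjusted p under 0.05 and 107 an unadjusted p under 0.05. The smallest adjusted p was 0.203, shared by KRT18, a joined entry of RPS15A and ARL6IP1, and ARHGEF12. ARHGEF12 encodes an exchange factor that activates RhoA. Its transcript ENST00000397843 took 11.98% and 54.2% of the gene's counts in PromethION Rep 1 and Rep 2 and 11.1% and 38.8% in MinION Rep 1 and Rep 2. ENST00000532993, which starts further downstream, took 86.1% and 44.4% and then 87.9% and 57.4%. Both Rep 2 libraries differed from both Rep 1 libraries in the same way, on 72, 98, 136 and 143 counts of the gene, and the level of ARHGEF12 itself did not pass (edgeR adjusted p = 0.22). In KRT18 the main transcript took 95.1% and 98.7% of the counts on the PromethION and 94.4% and 98.2% on the MinION.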

How the data were processed

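The authors deposited, for each library, an estimated count per transcript and a TPM column, per the file headers. The deposited TPM is the count scaled to the library total (CPM), as the 2 differ by at most 5.6e-11, and transcript length does not enter it. RNA was column-purified and libraries were made with a ligation kit with end repair of 30 min, per the labels' protocols. The submitters' processing notes name GRCh38 and minimap2 2.24-r1122. For the basecaller, quantifier and strand use, the answer is not given in the sources used here. Annotation positions are as deposited, and 99.8% of 99493 transcripts matched GENCODE 29.

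Transcript estimates of the 4 IGROV-1 libraries were summed per gene identifier and rounded, of which 722 join overlapping genes (4.57% to 5.56% of counts). Genes were tested with edgeR 4.0.16 in R 4.3.3 (quasi-likelihood, TMM, default filter by Rep number, instrument as block, two-sided). A gene was called where its Benjamini-Hochberg adjusted p was under 0.05. DESeq2 1.42.0 was an alternative. Ratios within an instrument used TMM-scaled CPM with a prior count of 2. Counting intervals are 95%, and a count of 0 allows up to 3 counts. The tests were checked on simulated data. Lengths come from GENCODE 29, weighted by counts. Promoters come from RefSeq (GRCh38.p14).

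The members and lists were chosen with earlier results of these data known. Genes named are the 10 called per direction with the largest smaller ratio, 5 in opposite directions, up to 4 abundant members per list, 3 by usage and 5 transcripts. Called list members and those said to be looked up later were added after their values were seen. Alternatives were block, normalization, tool, filters, thinning to 2328087 counts, genes kept, length offset and each library left out. Results for some genes that met these rules are not reported here.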

Additional observations from a re-analysis of the deposited data

Results flagged for a closer look

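Among genes whose mean level reached 20 CPM, the 5 with the largest ratios in opposite directions on the 2 instruments were RAB3D, SHQ1, DNLZ, MTMR14 and MT-RNR1. In each, the log2 ratio of Rep 2 over Rep 1 had one sign on the PromethION and the other on the MinION, with 1 library per number and instrument, and the difference was not tested. RAB3D, a small GTPase of secretory vesicles, had -0.52 on the PromethION and 0.66 on the MinION, on 41 to 71 counts per library. SHQ1, an assembly factor of box H/ACA particles, had 0.52 and -0.49. DNLZ, a mitochondrial zinc finger chaperone, had 0.59 and -0.45. MTMR14, a phosphoinositide phosphatase, had -0.44 and 0.44. MT-RNR1, the small mitochondrial ribosomal RNA, had 0.53 and -0.43, on 72400 and 104379 counts in the PromethION libraries and 6662 and 4611 in the MinION libraries. None of the 5 was called by edgeR with the block, and with the length offset added MT-RNR1 was called (log2 difference 0.21, adjusted p = 0.0051).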

How the results depend on the processing

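The 1089 called genes became 5 without the instrument block and 174 with DESeq2, and 58 to 133 with each library left out, which could be fitted only without the block. The other settings gave 804 to 1148. The 40 genes at least 2-fold apart became 224 at 1.5-fold and 18 at a mean of at least 20 CPM. The correlation of the instruments' ratios, 0.40, was 0.27 to 0.59 under the listed alternatives and 0.73 and 0.81 at a mean of 50 and 100 CPM or more, settings chosen after seeing the data. The 870 called transcripts became 0 without the block, 138 with DESeq2 and 0 to 5 with a library left out. The usage test called 0 genes in every setting, with 107 at an unadjusted p under 0.05 and 25 to 57 under the alternatives. The log2 change of TYMS turned to 0.004 without PromethION Rep 2 and 0.065 without MinION Rep 1 (range with a library left out -0.50 to 0.065). The log2 change of GAPDH turned to 0.054 without MinION Rep 1 (-0.54 to 0.054). The log2 change of HIST1H4C turned to 0.058 with DESeq2, 3.62 without PromethION Rep 1 and 0.57 without MinION Rep 2 (-3.35 to 3.62). The fits with a library left out had no block, and the numbers no longer held the same instruments. Those values therefore mix the difference between numbers with that between instruments. For HIST1H4C the levels were 264 and 201 CPM on the PromethION and 8.46 and 13.9 CPM on the MinION. The cause was not tested for any of these turns. Of the other values for single genes, 247 lost their call, 207 of them in fits without the block, 11 gained one and 951 kept direction and side. With 2 libraries per number, depth limits calls below 20 CPM, where the smallest called log2 difference was 0.57.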

Other observations

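Several genes of secreted signals were among the 29 that were at least 2-fold higher in Rep 2 on both instruments. They were picked out after their values were seen, so their number is no evidence of a theme. WNT5A, a ligand of noncanonical Wnt signalling, was at 18.4 and 43.8 CPM in PromethION Rep 1 and Rep 2 and at 22.4 and 53.8 CPM in MinION Rep 1 and Rep 2. CSF1, the growth factor of macrophages, was at 37.2 and 83.8 CPM on the PromethION and 31.6 and 71.4 CPM on the MinION. BMP4, a bone morphogenetic protein, was at 16.7 and 34.8 CPM and at 9.27 and 25.03 CPM. EDN1, which encodes endothelin 1, was at 20.5 and 48.97 CPM and at 25.4 and 57.2 CPM. In each of the 4 genes both Rep 2 libraries lay above both Rep 1 libraries, and edgeR's adjusted p ranged from 9.1e-17 (CSF1) to 2.3e-07 (BMP4).

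CD44, the hyaluronan receptor that also binds osteopontin, was at 22.2 and 52.8 CPM on the PromethION and 18.3 and 50.4 CPM on the MinION, while SPP1, which encodes osteopontin, was lower in both Rep 2 libraries. APOLD1, an early response gene of endothelium, was at 12.8 and 41.7 CPM and at 9.82 and 45.7 CPM, and its highest level in the 6 other lines was 9.79 CPM. Among lower genes, MAL, a proteolipid of apical membrane transport, was at 79.9 and 39.5 CPM on the PromethION and 97.1 and 47.9 CPM on the MinION.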
